A study of Drosophila melanogaster with 2 samples.

Results

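The DNA replication and mitosis genes described here are 34 genes of the Drosophila melanogaster cell cycle, 23 of replication licensing, S phase and its control and 11 of mitosis. They were chosen by name from knowledge of the pathway, not from measured values, but with earlier results of these data known. They were found through the transcript names of the array probes, which held 39 probes for them among 14593 probes for 13136 genes. Gene expression in whole female larvae of the last instar was measured on 2 two-colour arrays, each with RNA of ablated larvae in 1 channel and RNA of control larvae in the other. Ablated larvae carried rnGAL4, UASegr and tubGAL80ts over a wild-type chromosome, so that eiger, a tumour necrosis factor ligand that induces cell death, was switched on in the pouch of wing imaginal discs, the precursors of the wings. Control larvae carried the TM6 balancer with the Tb1 marker and tubGAL80, and so differ from the ablated larvae in the balancer as well as in eiger. Both groups were kept for 24 h at 30 °C and are labelled day 6. The treatment text of the labels gives the permissive and restrictive temperatures the other way round (18 and 30 °C), and the design text was followed. The labels do not state if replicates 1 and 2 are separate cultures, so errors cover only the spread between these arrays, which may be technical.

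Cells license their origins before S phase, when the origin recognition complex and Dup (the fly Cdt1) load the ring of Mcm proteins that later opens the DNA, while Geminin holds Dup in check. Cyclin E with Cdk2 starts S phase and E2F transcription factors switch on its genes. Cyclins A and B with Cdk1, released by the phosphatase String, drive entry into mitosis. In a larva, the imaginal discs and the brain grow by mitotic cycles, whereas most larval tissues, such as the salivary gland and fat body, replicate without dividing and use replication genes with little use for mitotic ones. In RNA of a whole animal these tissues are mixed, and fewer cells of a type cannot be told apart from less RNA per cell.

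The arrays differed in brightness and in direction. Over all gene spots the median signal above local background was 96 scanner units in the Cy5 channel and 93 in the Cy3 channel on replicate 1, and 1 (Cy5) and 10 (Cy3) on replicate 2. The ablated larvae were in the Cy5 channel of replicate 1 and in the Cy3 channel of replicate 2. Across the 5971 genes above background somewhere, the log2 ratios of the arrays ran against each other once turned as the labels give the dyes (Pearson's r = -0.53, across genes, which are not independent replicates). The direction of single genes is therefore unsettled, and means with the sign of replicate 2 turned are given for each tested member, as are the counts of the gene lists.

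Most of these genes could not be read. A probe counted as above background in a channel when its spot median exceeded the local background median by 2 local background SD. By this rule 12 of the 34 genes (35.3%) were above background in at least 1 of the 4 channels, against 45.5% of all 13136 genes. In ablated larvae 9 members were above background on replicate 1 and 3 on replicate 2, and in control larvae 7 on replicate 1 and 4 on replicate 2. As shares these were 26.5% and 8.82% in ablated larvae and 20.6% and 11.8% in control larvae, each below the share of all genes in the same channel (39.9% and 18.8% in ablated larvae, 28.4% and 16.1% in control larvae). The median local background SD was 106 on replicate 1 and 146 on replicate 2 in the ablated channel, against 162 and 164 in the control channel, so the threshold was lowest for ablated larvae on replicate 1. The part of this difference in the number of genes passing was not tested.

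**Figure D1:**
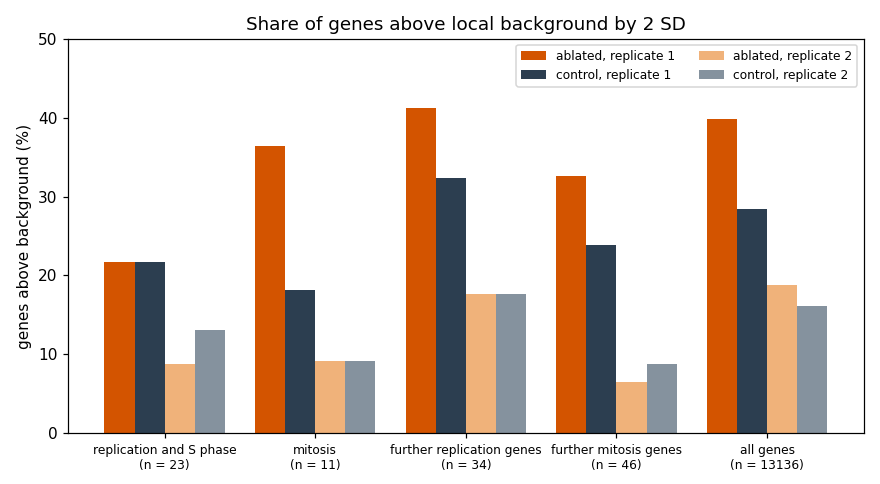
Bars show the share of genes above local background by 2 SD, in percent, for each RNA and array, in the 2 parts of the cell cycle list, in further genes of both pathways and in all genes on the arrays. Replication and S phase genes reached 21.7% in both groups on replicate 1, below the 39.9% (ablated) and 28.4% (control) of all genes.

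Replication and mitosis genes were set apart. Of the 23 replication and S phase genes, 5 were above background in ablated larvae on replicate 1 and 2 on replicate 2, and in control larvae 5 on replicate 1 and 3 on replicate 2. Among the 11 mitosis genes the numbers were 4 and 1 in ablated larvae and 2 and 1 in control larvae. As shares, replication and S phase genes had 21.74% and 8.696% in ablated larvae and 21.74% and 13.04% in control larvae. Mitosis genes had 36.36% and 9.091% in ablated larvae and 18.18% and 9.091% in control larvae. All genes had 39.9% and 18.8% in ablated larvae and 28.4% and 16.1% in control larvae. In at least 1 channel it was 30.43% of replication and 45.45% of mitosis genes, against 45.46% of all genes. Only Cdk4 was above background in all 4 channels, against 9.39% of all genes, and it was so through different probes on the 2 arrays. No single member probe had both channels above background on both arrays, which 8.42% of all probes had.

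**Figure D2:**
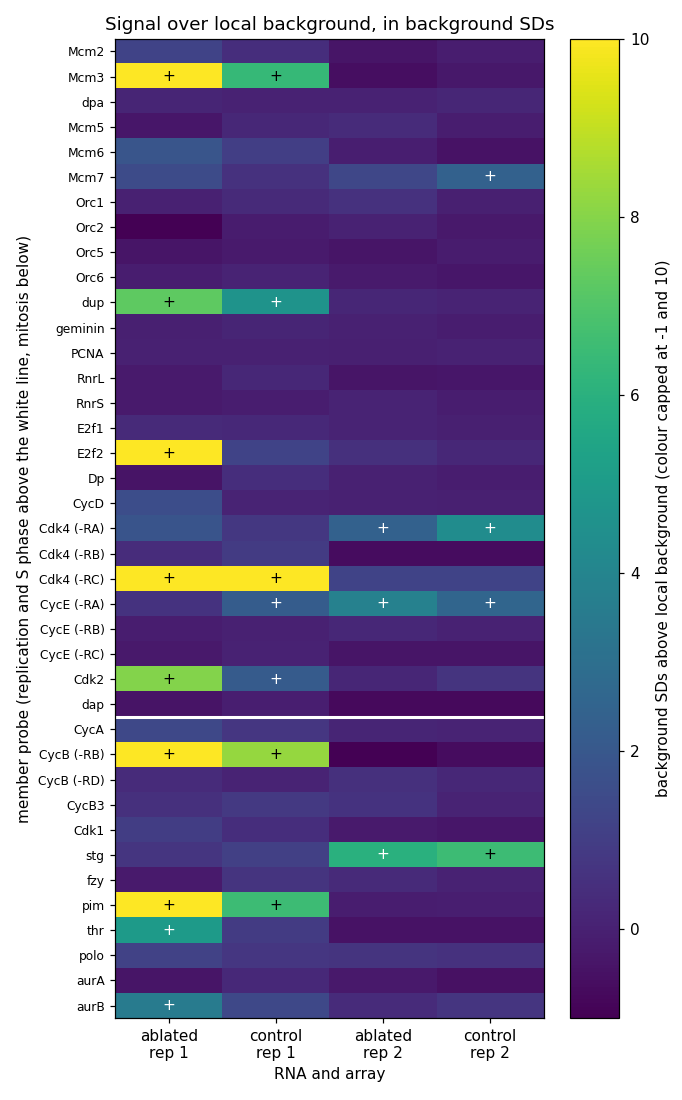
Each row is a member probe and each column an RNA and array; colour gives the signal over local background in local background SDs, capped at -1 and 10, and a plus marks a channel above 2 SD. Marked probes on replicate 1 (Mcm3, dup, Cdk2, CycB and pim among them) are mostly not marked on replicate 2, and stg is marked on replicate 2 only.

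The 22 genes not above background in any channel include PCNA, the sliding clamp of the replication fork, both subunits of ribonucleotide reductase (RnrL and RnrS), which makes the building blocks of DNA, and geminin. The highest signal of PCNA in any channel lay 0.0552 background SD above its surroundings, that of geminin 0.147, that of RnrL 0.211 and that of RnrS 0.0851. Transcripts of these 4 genes were thus not well above background in either group. Of the Mcm ring, Mcm2, dpa (Mcm4), Mcm5 and Mcm6 were not above background, and Mcm6 came nearest to the threshold at 1.88 SD in ablated larvae on replicate 1. All 4 listed subunits of the origin recognition complex (Orc1, Orc2, Orc5 and Orc6) stayed at or below 0.547 SD. The E2F activator E2f1 reached 0.312 SD and its partner Dp 0.440 SD. CycD, the G1 cyclin, reached 1.60 SD, and dap, the inhibitor of Cyclin E and Cdk2, lay below its local background in every channel (highest -0.0586 SD).

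Among mitosis genes, the kinases polo and aurA, the cyclins CycA and CycB3, the kinase Cdk1 and fzy, an activator of the anaphase-promoting complex, were not above background. CycA reached 1.37 SD, polo 1.18 SD and Cdk1 1.01 SD, each in ablated larvae on replicate 1. The polo probe had a net signal (spot median minus local background median) of 187 on replicate 1 and 237 on replicate 2 in ablated larvae and of 252 and 198 in control larvae. These signals were positive in all 4 channels but stayed below 2 SD of a variable local background.

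The readable members rested mostly on replicate 1. Both channels were above background together on replicate 1 for 6 of the 39 member probes (15.4%, against 25.5% of all probes), those of Mcm3, dup, Cdk4, Cdk2, CycB and pim, and on replicate 2 for 3 (7.69%, against 12.7%), those of CycE, stg and a further Cdk4 probe. Each such probe thus has 1 array on which both sides were measured, and Cdk4 alone has such a probe for each array. For scale, 12 probes printed 17 times on each array gave, between their copies, a median SD of the log2 ratio of 0.178 on replicate 1 and 0.193 on replicate 2.

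Of the Mcm ring, Mcm3 was bright on replicate 1 only. Its net signal there was 1326 in ablated and 561 in control larvae, and on replicate 2 it was -177 in ablated and -120 in control larvae. The normalized log2 ratio, ablated over control, was 0.46 on replicate 1, where both channels were above background, and -0.40 on replicate 2, where neither was, with a mean of 0.0307 ± 0.60 (SD, n = 2). The arrays therefore differ in sign, and only the first holds a signal. The mean with the sign of replicate 2 turned was 0.43.

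Mcm7 had net signals of 360 on replicate 1 and 119 on replicate 2 in ablated larvae, against 499 and 285 in control larvae. Control larvae were brighter on both arrays, although only their channel on replicate 2 was above background. The log2 ratio was -0.73 on replicate 1 and -0.68 on replicate 2, a mean of -0.71 ± 0.034 (SD, n = 2), the lowest of the 12 tested members. Turning the sign of replicate 2 gave a mean of -0.0243. In limma, fitted over all 5971 genes, Mcm7 had a Benjamini-Hochberg adjusted p of 0.996. Neither array had the ablated channel well above background, and the bound on the fold, 1.63 higher in control larvae, equals the measured fold and is no minimum.

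The licensing factor dup, which loads the Mcm ring, had a net signal of 660 in ablated and 478 in control larvae on replicate 1, both above background. On replicate 2 it had 74 in ablated and 108 in control larvae, neither above background. Its log2 ratio was -0.13 on replicate 1 and -0.23 on replicate 2 (mean -0.18 ± 0.070, SD, n = 2). The value on replicate 1 lies within the spread between copies of a probe, and the mean for dup became 0.0498 with the sign of replicate 2 turned.

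E2f2, the E2F family member that represses transcription, was above background in ablated larvae on replicate 1 only. Its net signal was 1116 on replicate 1 and 199 on replicate 2 in ablated larvae, against 834 and 110 in control larvae. The log2 ratio was -0.22 on replicate 1 and 0.30 on replicate 2 (mean 0.0385 ± 0.37, SD, n = 2), so the arrays differ in sign. Neither array had the control channel well above background. Turning the sign of replicate 2 gave a mean of -0.26.

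Of the G1 and S phase kinases, Cdk4, the partner of Cyclin D, had 3 probes that did not read alike. The brightest had net signals of 5016 in ablated and 3442 in control larvae on replicate 1, both above background, and of 472 in ablated and 511 in control larvae on replicate 2, neither above it. Its log2 ratio was -0.15 on replicate 1 and -0.17 on replicate 2 (mean -0.16 ± 0.014, SD, n = 2, and 0.0101 with the sign of replicate 2 turned). A further probe was dark on replicate 1, at 30 in ablated and 28 in control larvae, and bright on replicate 2, at 1701 in ablated and 1477 in control larvae. There its log2 ratio was 0.0668, and on replicate 1 it was 0.16. The remaining probe was not above background in any channel. The first 2 probes of Cdk4 have opposite signs, and both stay within the spread between copies of a probe on the array where each was above background.

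Cdk2, the partner of Cyclin E, was above background in both groups on replicate 1, with net signals of 311 in ablated and 225 in control larvae. On replicate 2 it had 24 in ablated and 110 in control larvae, neither above background. Its log2 ratio was -0.0152 on replicate 1 and -0.51 on replicate 2 (mean -0.26 ± 0.35, SD, n = 2), and on the array with signal in both channels the groups thus read nearly the same. Its mean changed sign, to 0.25, once replicate 2 was turned.

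CycE was the member with the most channels above background through 1 probe, 3 of 4. Its net signal was 144 on replicate 1 and 537 on replicate 2 in ablated larvae, against 291 and 356 in control larvae. Ablated larvae were the dimmer group on replicate 1 and the brighter on replicate 2, and the log2 ratio was -0.74 on replicate 1 and 0.32 on replicate 2 (mean -0.21 ± 0.75, SD, n = 2). This was the widest spread among the tested members, and the mean with the sign of replicate 2 turned was -0.53. The other 2 CycE probes were not above background in any channel.

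Turning to mitosis, CycB, the cyclin of mitotic entry, behaved like Mcm3 on both arrays. Its brighter probe had a net signal of 1485 in ablated and 719 in control larvae on replicate 1, and of -247 in ablated and -140 in control larvae on replicate 2. The log2 ratio was 0.30 on replicate 1 and -0.53 on replicate 2, where neither channel was above background (mean -0.12 ± 0.59, SD, n = 2, and 0.41 with the sign of replicate 2 turned). A second CycB probe was not above background in any channel.

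The phosphatase gene stg, which releases Cdk1 for mitosis, was readable on replicate 2 only. It had net signals of 819 in ablated and 927 in control larvae there, and of 9 in ablated and 34 in control larvae on replicate 1. The log2 ratio was 0.0160 on replicate 1 and -0.25 on replicate 2 (mean -0.12 ± 0.19, SD, n = 2). Turning replicate 2 made the stg mean 0.13.

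For pim, the fly securin, which holds the cohesin-cutting enzyme inactive until anaphase, the net signal on replicate 1 was 1214 in ablated and 1161 in control larvae, both above background. On replicate 2 it was -42 in ablated and -30 in control larvae. The log2 ratio was -0.54 on replicate 1 and -0.15 on replicate 2 (mean -0.34 ± 0.28, SD, n = 2, and -0.20 once replicate 2 was turned). The net signals of the groups on replicate 1 were close, whereas the ablated channel was the brighter for 79.5% of the probes with both channels above background on that array, and the ratio is relative to those. Among the 6 member probes readable in both groups on replicate 1, pim had the lowest ratio and Mcm3 the highest.

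The partner of pim, thr, was above background in ablated larvae on replicate 1 only, at a net signal of 541 there against 349 in control larvae, and had -155 in ablated and -197 in control larvae on replicate 2. Its log2 ratio was 0.0197 on replicate 1 and 0.0305 on replicate 2, with no bound on the fold, since control larvae were not well above background, and turning replicate 2 gave a mean of -0.00537. The kinase aurB, the enzyme of the chromosomal passenger complex, was likewise above background in ablated larvae on replicate 1 only. It had 869 on replicate 1 and 124 on replicate 2 in ablated larvae, against 587 and 179 in control larvae. Its log2 ratio was -0.0755 on replicate 1 and -0.30 on replicate 2, and the mean was 0.11 with the sign of replicate 2 turned. No bound on the fold could be given.

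**Figure D3:**
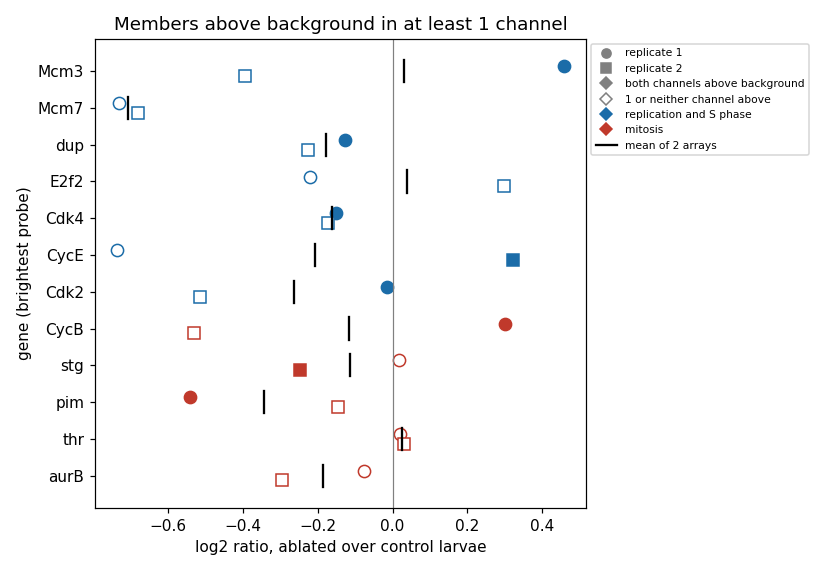
Points give the log2 ratio (ablated over control larvae) on replicate 1 (circles) and replicate 2 (squares) for the 12 members above background in at least 1 channel, filled where both channels of that array were above background; bars mark the mean of the 2 arrays. Each gene is plotted through its brightest probe above background and has at most 1 filled point, and Mcm7, with the lowest mean (-0.71), has none.

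Of the 12 tested members, 0 passed limma at an adjusted p of 0.05 (lowest adjusted p over all genes 0.996), as did 0% of the 5971 genes. At an unadjusted p under 0.05 stood 1 member, Mcm7, against 2.41% of all genes. In all, 6 members had a ratio below 0 on both arrays (Mcm7, dup, Cdk4, Cdk2, pim and aurB), against 22.4% of all genes, 1 a ratio above 0 on both (thr), against 24.5%, and 5 a ratio of opposite sign on the arrays (Mcm3, E2f2, CycE, CycB and stg), against 53.2%. None of these 6 was above background in both groups on both arrays through 1 probe, and Cdk4 was so through different probes. Mcm7, E2f2, thr and aurB entered the test through a single group, so these counts describe the members that passed the filter and support nothing about the 34.

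The 7 replication and S phase genes tested had a median log2 ratio of -0.15 on replicate 1 and -0.23 on replicate 2 (median of the means -0.18), against 0.0162 and 0.00570 over all genes tested. The 5 mitosis genes had 0.0160 on replicate 1 and -0.25 on replicate 2 (median of the means -0.12). Restricted to probes with both channels above background, the 6 member probes on replicate 1 had a median of -0.0715, against -0.0609 over all such probes, with 4 below 0 and 2 above, and 54.9% of all such probes lay below 0. On replicate 2 the 3 member probes had a median of 0.0668, against 0.0377 over all such probes, with 1 below 0 and 2 above. Of all such probes on replicate 2, 46.9% lay below 0. With the sign of replicate 2 turned, 2 of the 12 members were below 0 and 3 above 0 on both arrays, against 26.1% and 27% of all genes, and the median was 0.0101 for replication and 0.11 for mitosis genes.

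**Figure D4:**
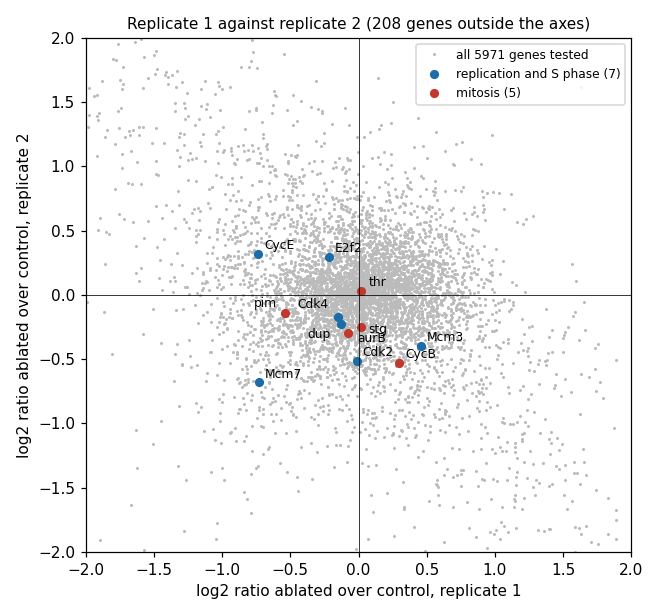
Each point is a gene, with the log2 ratio (ablated over control larvae) of replicate 1 on the horizontal and on replicate 2 on the vertical axis; grey points are all 5971 genes tested, blue points the 7 replication and S phase and red points the 5 mitosis genes. Genes run from upper left to lower right (r = -0.53), and Mcm7 lies apart from the other members at lower left.

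In the authors' deposited table of log2 ratios, whose columns are not centred (medians of 0.487 on replicate 1 and -0.115 on replicate 2), 4 of the 12 members lay below the median of their column on both arrays and 2 above it on both, against 15.9% and 31.0% of genes. Mcm7 stood at -0.467 and -1.26 in the authors' deposited table, below the column median on both arrays. Mcm3 at 1.24 and 0.553 and CycB at 1.04 and 0.829 in the authors' deposited table lay above it on both. The authors' deposited table thus gives Mcm3 and CycB a sign on replicate 2 opposite to that after normexp and loess. Both net signals of either probe were negative on that array, and the quotient of 2 negative values is positive. The same held for 15 of the 31 member spots with a value for replicate 2 in the authors' deposited table, and for 4 of 28 on replicate 1.

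Further replication genes were examined beside the members. Of 34 further replication genes with a probe (of 35 listed), 16 were above background somewhere (47.1%, against 45.5% of all genes), 14 in ablated larvae on replicate 1 and 6 on replicate 2, against 11 and 6 in control larvae, and 4 in all channels (9.39% of all genes). The shares were 41.18% and 17.65% in ablated larvae and 32.35% and 17.65% in control larvae. Those of all genes were 39.9% and 18.8% in ablated larvae and 28.4% and 16.1% in control larvae. The median log2 ratio of the further replication genes was -0.19 on replicate 1 and 0.13 on replicate 2, with 5 below 0 and 2 above 0 on both arrays (9 and 0 with the sign of replicate 2 turned), and 0 passed. Over all genes tested, 22.4% lay below 0 and 24.5% above 0 on both arrays (26.1% and 27% with the sign turned). RfC4 passed the filter only through control larvae, and Psf3, PolA2, dUTPase and Cdc7 only through ablated larvae. The counts by sign therefore support nothing about the 34. Some further replication genes had the same sign on both arrays and signal in both groups. Of these, chif, which activates the replication kinase Cdc7, averaged -0.45 ± 0.17 (SD, n = 2) through its brightest probe. A second chif probe with both groups above background on replicate 1 read 0.0278 there and -0.24 on replicate 2 (mean -0.10 ± 0.19, SD, n = 2), so the chif probes disagree. Gnf1, the large subunit of the clamp loader, averaged -0.33 ± 0.16 (SD, n = 2), but was above background on replicate 1 only. On replicate 2 the net signal of Gnf1 was -10 in ablated and 53 in control larvae. Mcm10, a factor of helicase activation that was above background in all 4 channels, averaged 0.20 ± 0.22 (SD, n = 2), and RPA3, a subunit of the single-strand binding complex with signal in all 4 channels, -0.16 ± 0.18 (SD, n = 2).

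Of 46 further mitosis genes with a probe (of 48 listed), 15 were above background somewhere (32.6%, against 45.5% of all genes), 15 in ablated larvae on replicate 1 and 3 on replicate 2, against 11 and 4 in control larvae. The shares were 32.6% and 6.52% in ablated larvae and 23.9% and 8.70% in control larvae. Those of all genes were 39.9% and 18.8% in ablated larvae and 28.4% and 16.1% in control larvae. The median log2 ratio of the further mitosis genes was 0.0422 on replicate 1 and 0.0383 on replicate 2, with 1 below 0 and 3 above 0 on both arrays (5 and 6 with the sign of replicate 2 turned), and 0 passed. The shares of all genes tested were 22.4% below 0 and 24.5% above 0 (26.1% and 27% with the sign turned). Cdc23 and scra passed the filter only through ablated larvae, so the counts by sign support nothing about the 46. The gene below 0 on both was SMC3, a subunit of cohesin, which was above background in all 4 channels. It read -0.81 on replicate 1 and -0.68 on replicate 2 (mean -0.75 ± 0.091, SD, n = 2, limma adjusted p = 0.996), and unlike Mcm7 it was measured in both groups on both arrays. With the sign of replicate 2 turned the SMC3 values would have opposite signs, so its direction is as unsettled as that of the members. Klp3A, a kinesin of the spindle midzone, averaged 0.31 ± 0.085, the condensin subunit gene Cap-D2 0.18 ± 0.093 and the minus-end kinesin gene ncd 0.16 ± 0.17 (SD, n = 2 each). Klp3A, Cap-D2 and ncd were above background on replicate 1 only, so their means and SDs rest in part on dim spots. On replicate 2 the net signal was -54 in ablated and -144 in control larvae for Klp3A, and -51 and -122 for ncd.

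Markers of the dividing tissues of the larva were also examined. Of 24 imaginal disc genes, 9 were above background on replicate 1 and 4 on replicate 2 in ablated larvae, against 3 and 4 in control larvae. The shares were 37.5% and 16.7% in ablated larvae and 12.5% and 16.7% in control larvae. Those of all genes were 39.9% and 18.8% in ablated larvae and 28.4% and 16.1% in control larvae. Among the 10 tested, 0 were below 0 on both arrays, against 22.4% of all genes, and 5 above 0, against 24.5%. With the sign of replicate 2 turned these counts were 2 and 3, against 26.1% and 27%. As labelled, 5 had opposite signs on the arrays, against 53.2% of all genes. The median log2 ratio of the tested disc genes was 0.26 on replicate 1 and 0.0967 on replicate 2 (median of the means 0.0275). Over all genes tested it was 0.0162 and 0.00570 (median of the means 0.00917). Of the tested genes, vg, en, dpp and Ubx passed the filter only through ablated larvae and Dll only through control larvae. These counts and medians therefore support nothing about the 24. The wing pouch factor nub had 3 probes that did not read alike, the brightest averaging 0.34 ± 0.28, a further one 0.0387 ± 0.23 and the remaining one -0.67 ± 0.20 (SD, n = 2 each). Of these the last had both groups above background on replicate 1 and the brightest on replicate 2. The homeodomain cofactor gene exd averaged 0.31 ± 0.30 (SD, n = 2). It read 0.52 on replicate 1, where control larvae were not above background, and 0.0930 on replicate 2, where both groups were. Of 12 neuroblast genes, 3 and 1 were above background in ablated larvae (25% and 8.33%) and 4 and 1 in control larvae (33.3% and 8.33%). Each of the 4 tested had opposite signs on the arrays, as 53.2% of all genes had (3 below and 1 above 0 on both with the sign of replicate 2 turned). One of the 4, insc, passed the filter only through control larvae. The part of changes in these tissues in the ratios of the replication and mitosis genes was not tested.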

How the data were processed

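Spots were quantified with GenePix Pro 7.1.25, per the file headers. The deposited intensity values used are spot medians, local background medians and background SDs in the Cy5 and Cy3 channels. The deposited percent of saturated pixels was 0 for every member probe. The authors also deposited log2 ratios, one per spot and array, whose normalization no source used here states. Transcript names were matched to symbols through the RefSeq gene table (assembly Release 6 plus ISO1 MT), 12688 probes by locus tag and 1218 by synonym, while 687 kept the name in the file.

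Background was corrected with normexp (offset 50), ratios were normalized by loess within arrays (control spots had weight 0) in limma 3.58.1 under R 4.3.3, and replicate 2 was turned so that ratios run as ablated over control. Spots of a probe were averaged, and the brightest probe above background stood for a gene. The 5971 genes above background in at least 1 channel were tested with lmFit and eBayes against 0 and Benjamini-Hochberg adjustment. The code of the fit was run on simulated ratios with independent arrays, a setting unlike these arrays (r = -0.53). That run does not bear on what could be found here. Bounds on a fold came from channel values after loess and Aquantile, where the dim group had as its floor the dimmest detected probe of the array, which makes the bound lenient. All 34 members are accounted for, with full values for those above background in at least 1 channel. Further pathway genes are named where both groups were above background and the arrays had 1 sign, at most 4 a list by size of the mean. The members, lists and alternatives were chosen with earlier results of these data known. With 2 arrays, their number limits the precision throughout. Promoter motifs were not analysed here.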

Additional observations from a re-analysis of the deposited data

How the results depend on the processing

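The count of genes past an adjusted p of 0.05 in limma was 0 under the background, normalization, filter, probe and eBayes alternatives and in the authors' values, and 515 with the sign of replicate 2 turned, among them 0 of the 12 members. The median log2 ratio of replication and S phase genes (-0.18 as reported) was -0.46 with plain background subtraction, -0.0432 with median centring, -0.00612 with no filter on dim probes, -0.044 in the authors' values and 0.0101 with the sign of replicate 2 turned. Leaving out each array in turn gave -0.23 to -0.15. For mitosis genes (-0.12 as reported) it was -0.27 with plain background subtraction (2 genes), -0.20 with a normexp offset of 16, -0.0312 with median centring, 0.15 in the authors' values, 0.11 with the sign turned, and -0.25 to 0.0160 with each array left out. Replication genes below 0 on both arrays numbered 4 as reported, 1 with median centring, 8 of 23 with no filter, 1 in the authors' values and 2 with the sign turned. Mitosis genes below 0 on both arrays numbered 2 as reported, 1 of 2 with plain subtraction, 4 of 11 with no filter, 1 of 3 with the stricter filter, 1 in the authors' values and 0 with the sign turned. Of all genes, 22.4% lay below 0 on both arrays as reported, 13.1% with median centring and 23.2% with no filter. The share was 22.3% with plain subtraction, 25.7% with the stricter filter, 8.11% in the authors' values and 26.1% with the sign turned. With a threshold of 1 background SD, 16 members were above background in ablated and 11 in control larvae on replicate 1. With 3 SD, 2 were in control larvae on replicate 2. No shares of all genes at 1 or 3 SD are given, so whether the members differ from all genes there is not known. Median centring and the authors' values moved the median ratio of all genes to 0.14 and 0.31. Apart from the turned sign and the left-out arrays, dup, Cdk2 and CycE kept the sign of their mean in the 10 alternatives and Mcm7 in 9, since it fails the stricter filter; Mcm7 ran from -1.23 to -0.57. Aquantile leaves ratios as they are by construction. The changes of filter and of probe choice also returned the same mean for dup, Cdk2, CycE and Mcm7 wherever these were tested. Those alternatives could therefore not change the sign. CycE had opposite signs on the 2 arrays as reported, and stood at 0.32 without replicate 1. The causes of these shifts were not tested.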

Other observations

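The female germline is a further source of dividing cells in the larva, and a list of 10 genes named for it was examined, of which 9 had a probe. RNA of a whole larva does not show if a reading of these genes, ovo and Sxl among them, came from the germline. In ablated larvae 2 were above background on replicate 1 and 1 on replicate 2, against 2 and 2 in control larvae. The shares were 22.2% and 11.1% in ablated larvae and 22.2% and 22.2% in control larvae. Those of all genes were 39.9% and 18.8% in ablated larvae and 28.4% and 16.1% in control larvae. Among the 4 tested, piwi, a protein of transposon silencing that is also used in somatic cells of the gonad, read -0.70 on replicate 1 and -0.93 on replicate 2 (mean -0.82 ± 0.16, SD, n = 2), with both groups above background on replicate 2 only. The other gene of 1 sign on both arrays, bam, a differentiation factor of the germline, read 0.72 on replicate 1 and 0.16 on replicate 2 (mean 0.44 ± 0.39, SD, n = 2), with both groups above background on replicate 1 only. Neither passed limma (adjusted p = 0.996 each). Of the other genes tested, ovo read -2.79 on replicate 1, where both groups were above background, and 0.67 on replicate 2, where neither was. Sxl read 0.48 on replicate 1 and -0.27 on replicate 2, and passed the filter only through control larvae on replicate 2. With the sign of replicate 2 turned, 1 gene lay below 0 (ovo) and 1 above 0 (Sxl) on both arrays, against 26.1% and 27% of all genes.

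In the authors' deposited table, many ratios rest on spots dimmer than their surroundings in both channels. On replicate 2, 5633 of 12520 gene spots with a value (45.0%) had a negative net signal in both channels, against 1818 of 12098 (15.0%) on replicate 1. For 91.2% of these spots on replicate 2 and 93.5% on replicate 1 the deposited log2 ratio lay within 0.1 of the log2 quotient of the negative net signals. Such a ratio has the group that is further below background on top.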
